A study of Homo sapiens with 4 samples.

Results

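The clustered protocadherins are a family of adhesion genes in 3 neighbouring clusters on chromosome 5, named alpha, beta and gamma. They were taken as all protein-coding rows on chromosome 5 whose GENCODE 29 symbol starts with PCDHA, PCDHB or PCDHG. This gave 53 genes of the 58735 in the count table, with 15 in the alpha, 16 in the beta and 22 in the gamma cluster. They span chr5:140786136-141512981 (GRCh38), all on the plus strand.

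The RNA-seq counts come from 4 libraries made from A549 cells, a lung adenocarcinoma line long kept in culture. In 2 libraries the cells carried a CRISPR guide against UHRF1 (UHRF1 KO), and in the other 2 a non-targeting guide (control). All cells had received the lentiCRISPRv2-hygro vector and hygromycin. The labels do not say whether cells were pools or clones, how long after infection they were taken, or whether cultures were separate. The p-values thus reflect only how far these libraries spread, and that spread may be technical.

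Each clustered protocadherin is a cadherin-type surface protein that binds its own kind on a neighbouring cell. In the alpha and gamma clusters every gene has its own promoter and a long exon of its own, which is spliced to exons shared by the whole cluster, while beta genes are single coding exons with no shared part. In neurons each cell uses a few of these promoters, which gives it a surface identity used in the self-avoidance of its branches. CTCF and cohesin loop an active promoter to a distant enhancer, and methylation of the promoter and exon CpGs keeps an unused gene silent. UHRF1 recruits the maintenance methyltransferase DNMT1 to newly copied DNA. The comparison asks which of these genes change in level when UHRF1 is targeted.

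Total counts were 20020366 and 23977168 in the UHRF1 KO libraries and 18604598 and 19222886 in the control libraries. Levels are CPM, counts relative to library size, after TMM scaling, where 1 count is worth 0.0417 to 0.0538 before scaling. UHRF1 itself (ENSG00000276043, chr19:4903080-4962154) had 811 and 1000 counts in the UHRF1 KO libraries and 1740 and 1834 in the control libraries. Its log2 fold change was -1.31 (SE 0.055, edgeR adjusted p = 3.92e-20). Both UHRF1 KO libraries lay below both controls, in the direction of the labels, though transcript remained. The keratins KRT8 and KRT18, which are found in epithelial cells in general, averaged 2108 ± 16.0 and 622.9 ± 6.76 CPM in UHRF1 KO, and 2676 ± 107.8 and 840.2 ± 21.5 CPM in control (SD, n = 2 each). They come from a list of 6 epithelial markers, of which 5 were lower in UHRF1 KO. EPCAM, far less abundant, was higher. Over all 17030 genes tested, 32% were called higher and 30.1% lower in UHRF1 KO (62% in either direction, edgeR adjusted p under 0.05).

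What a protocadherin count can hold follows from how reads over shared exons were treated. Of 1894 genes whose annotated exon bases all lie inside exons of other genes, 1820 had 0 counts in all 4 libraries, and the highest count among the rest was 10. Among 515 of them whose own bases are lost only through genes of the opposite strand, 512 had 0 counts. Reads over bases shared by genes were therefore nearly absent from the table, and overlap on the opposite strand counted as shared. An alpha or gamma count therefore comes from the gene's own exon, which held between 2011 and 10574 bases over all members, and says nothing of the shared exons. Reads of an antisense transcript over the own bases cannot be told apart from reads of the gene. The members are also alike in sequence. The median share of stretches of 50 bases in the longest annotated first exon that also occur in another protocadherin transcript was 9.06% in the alpha, 14.4% in the beta and 5.72% in the gamma cluster, with a highest share of 58.5% in PCDHGB4. Counts of such genes are uncertain where reads that match several places were split.

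The sequences just before the starts are shown because the promoter is what a cell selects in these clusters. RefSeq promoter sequence (GRCh38.p14) was found for 47 of the 53 genes, and the 250 bases before the start were used. The text CGCT, the core of the conserved element known from protocadherin promoters, was searched on both strands. It stood in 12 of 13 alpha, 13 of 14 beta and 20 of 20 gamma windows, and in 64.2% of 27258 other RefSeq promoter windows of the same length. The following lines show 30 bases around a CGCT of the plus strand, 5′ to 3′, with the CGCT in capitals, for genes with many counts, genes called in a fit and some of their neighbours.
PCDHA1 (chr5:140786089-140786118): ggccacatgatgtCGCTgtacaccacaaag
PCDHA4 (chr5:140806982-140807011): agccacatgatgtCGCTctttaccacaaaa
PCDHA5 (chr5:140821545-140821574): atccacatgatgtCGCTggacaccggaagg
PCDHA12 (chr5:140875247-140875276): agtcacatgatgtCGCTctacactcagaag
PCDHAC1 (chr5:140926223-140926252): tagaaggtgtggtCGCTcacgttcaccgtc
PCDHAC2 (chr5:140966422-140966451): tgagccctcctacCGCTccctttccccctc
PCDHB2 (chr5:141094547-141094576): agacgcggggtggCGCTgcagccttagaag
PCDHB4 (chr5:141121726-141121755): agacgcagggtggCGCTgcaggctaagttg
PCDHGA1 (chr5:141330406-141330435): ggactgtgggcgcCGCTgttcactaatctg
PCDHGA2 (chr5:141338706-141338735): ggcctctgagcgtCGCTgttgaccacctaa
PCDHGA3 (chr5:141343770-141343799): ggcctcttagtgtCGCTgttgaccactcaa
PCDHGB2 (chr5:141359924-141359953): aacctctgagcgtCGCTgttggtcaaaaga
PCDHGC3 (chr5:141475883-141475912): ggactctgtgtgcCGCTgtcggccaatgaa

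Each cluster had its own commonest word of 8 bases that holds CGCT. The 8 bases ATGTCGCT stood in 9 of 13 alpha windows and in 0 of the 34 beta and gamma windows, GTGGCGCT in 12 of 14 beta windows only, and GCCGCTGT in 11 of 20 gamma windows only. These words were picked as the commonest of each cluster that hold CGCT, and were found on either strand in 0.158%, 0.906% and 1.15% of the other promoter windows. PCDHAC1, PCDHAC2, PCDHGA2, PCDHGA3 and PCDHGB2 lack the word of their cluster. Their lines show the CGCT nearest to the median position of that word, which need not be the element. That of PCDHGB2 lies 199 bases before the start, against a gamma median of 65. PCDHA4, which was lower in UHRF1 KO, and PCDHA5 and PCDHA12, which were not called, share the same alpha word. PCDHGA2, which was higher, and PCDHGA3 beside it do not hold the gamma word. A match is a description of letters, and methylation was not measured.

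Compared with the other members, CpG content was high in the windows of the C-type genes, the last genes of the alpha and gamma clusters. The C-type gene PCDHGC5 had no window. The median window held 6 CpGs, against 11 in the other RefSeq promoters, while PCDHAC1, PCDHAC2, PCDHGC3 and PCDHGC4 held 18, 13, 15 and 13, and PCDHGB6, which is not of the C type, held 14. All others held at most 11. The PCDHGA2 and PCDHA4 windows held 4 and 5. Across the 18 tested genes with a window, the CpG count and the log2 fold change had a Pearson r of -0.21 and a Spearman rho of -0.19, as a description over genes that share libraries and a locus. The windows of the gene that rose and of the fallen gene with the most counts are given whole, with CGCT of either strand (AGCG on the strand shown) in capitals.
PCDHGA2 (chr5:141338510-141338759, plus strand): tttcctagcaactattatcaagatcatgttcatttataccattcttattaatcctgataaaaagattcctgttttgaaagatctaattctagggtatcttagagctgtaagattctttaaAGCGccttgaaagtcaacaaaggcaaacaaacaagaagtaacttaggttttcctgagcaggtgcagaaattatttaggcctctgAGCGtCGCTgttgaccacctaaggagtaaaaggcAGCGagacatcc
PCDHAC2 (chr5:140966226-140966475, plus strand): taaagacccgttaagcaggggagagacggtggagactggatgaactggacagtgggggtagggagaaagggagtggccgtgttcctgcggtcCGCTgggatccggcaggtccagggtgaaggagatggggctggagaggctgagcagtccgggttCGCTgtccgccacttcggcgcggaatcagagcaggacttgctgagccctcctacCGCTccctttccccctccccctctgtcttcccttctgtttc

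Most of the clustered protocadherins were at or near silence in both groups. In the controls the median level over the 53 members was 0.0510 CPM per kb of own exon, against 1.69 over all protein-coding genes with own exon bases. At least 1 count was found for 46 and 52 members in the UHRF1 KO libraries and for 44 and 37 in the control libraries. Over all genes the numbers were 28486 and 29341 in the UHRF1 KO libraries and 24600 and 24504 in the control libraries, so more detected genes in UHRF1 KO was general. Only PCDHB1 had 0 counts in all 4 libraries, and 7 members had 0 counts in both controls. The filter on low counts was passed by 20 members, 8 alpha, 3 beta and 9 gamma, and by 68.7% of all protein-coding genes. Of these 20, PCDHGA2 was called higher and PCDHA3, PCDHA4 and PCDHAC2 were called lower in UHRF1 KO, while 16 did not pass the test. Of all tested protein-coding genes 32% were called higher and 34.6% lower, and of tested genes under 20 CPM, which include every tested member, 37% were called higher and 15.1% lower. Most tested members lay far lower, under 2 CPM. In simulated counts, 7 of 18 genes under 2 CPM with a 2-fold change were called, and 0 of 6 with a 1.5-fold change. A member not called is thus not shown to be unchanged, and the shares are no close match for the members. Both UHRF1 KO libraries lay above both controls in 3 tested members and below them in 5, against 41.6% and 38.4% of all genes tested. The median log2 fold change was -0.08 over the 20 tested members and 0.02 over all genes tested.

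**Figure D1:**
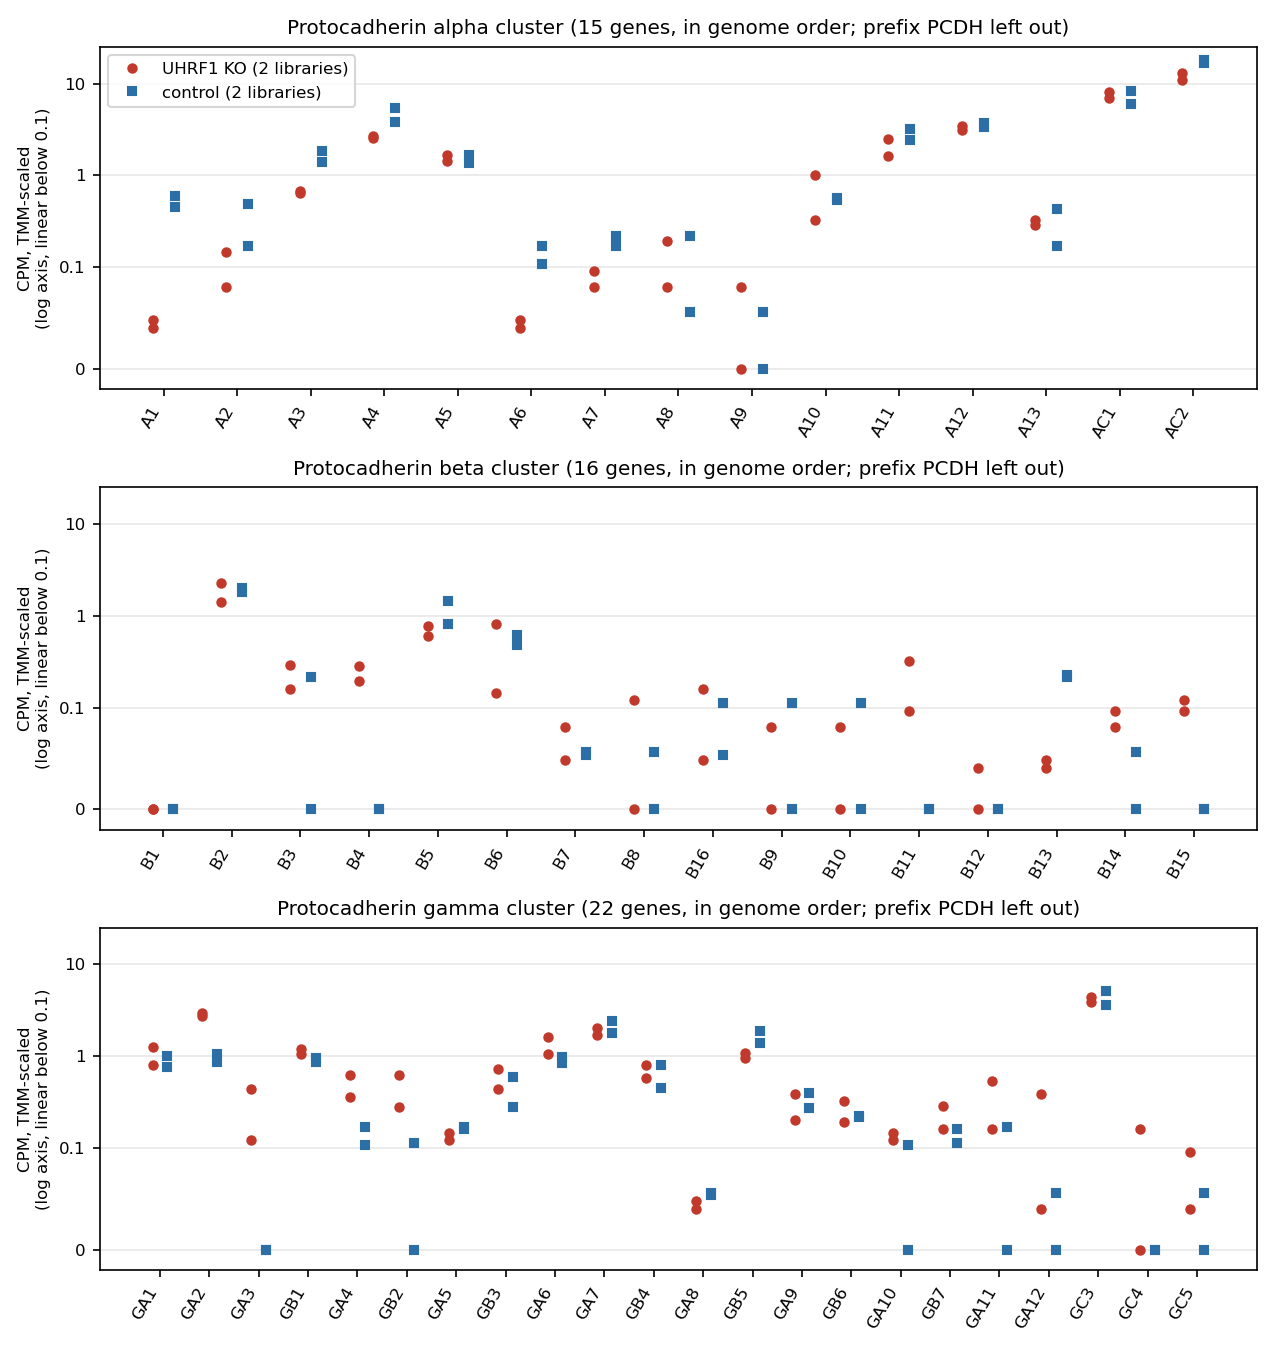
Level of each of the 53 clustered protocadherins in each library, as CPM on a log axis that is linear below 0.1, in genome order within the alpha, beta and gamma clusters (red circles: UHRF1 KO, blue squares: control). PCDHAC2 and PCDHAC1 stand highest in both groups, and most beta genes lie below 1 CPM.

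The alpha cluster was the most abundant of the 3, and its called genes were all lower in UHRF1 KO. Of 15 genes, 8 were tested, 0 rose and 3 fell, beside a background of 32% called higher and 30.1% lower. As a count this is too small to read against that background. With 0 higher calls in edgeR, none of the 8 was higher at an unadjusted p under 0.05, and DESeq2 and limma-voom called 0 as well. PCDHAC2 (ENSG00000243232, chr5:140966235-141012344) is a C-type gene which in mouse serotonin neurons is needed for the even spread of axons. It had 12.9 and 10.8 CPM in the UHRF1 KO libraries and 16.6 and 17.8 CPM in the control libraries, from 267 and 269 against 296 and 331 counts. Both UHRF1 KO libraries lay below both controls. The log2 fold change was -0.55 (SE 0.11, edgeR adjusted p = 5.87e-05), with adjusted p from 1.17e-09 to 0.00751 in 13 alternative fits.

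PCDHA4 and PCDHA3, neighbouring genes near the 5′ end of the cluster, fell as well. PCDHA4 (ENSG00000204967, chr5:140806929-141012344) had 2.70 and 2.53 CPM in UHRF1 KO and 3.81 and 5.44 CPM in control, a difference of -0.83 on the log2 scale (SE 0.22; adjusted p = 0.00141 in edgeR). PCDHA3 (ENSG00000255408, chr5:140801028-141012344) had 0.675 and 0.644 CPM in UHRF1 KO and 1.85 and 1.40 CPM in control, a difference of -1.29 on the log2 scale (SE 0.38; adjusted p = 0.00368 in edgeR). For both genes the groups did not overlap. PCDHA3 was lower by more than 2-fold, as were 2.54% of genes tested. The PCDHA4 call was lost without control replicate 2 (edgeR adjusted p = 0.0676) and with DESeq2 (adjusted p = 0.0561), and the PCDHA3 call without control replicate 1 (edgeR adjusted p = 0.0554) and with DESeq2 (adjusted p = 0.0933). Over 13 alternatives the adjusted p ran from 3.95e-05 for PCDHA4 and from 4.27e-04 for PCDHA3, and each gene was called in 11. PCDHA1, upstream of them, was under the filter with 1 and 1 counts in UHRF1 KO and 8 and 11 in control, a ratio of 0.084 with an exact 95% counting interval of 0.00949 to 0.348. With no filter on low counts it was called lower (adjusted p = 0.00257 in edgeR), as 1 of 4 alpha genes, beside 15.8% of all genes.

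The 5 other tested alpha genes were not called. PCDHAC1, the second most abundant, had 8.15 and 6.92 CPM in UHRF1 KO and 6.001 and 8.30 CPM in control, and the groups overlapped (log2 fold change 0.07, SE 0.16, edgeR adjusted p = 0.736). PCDHA12 had 3.47 and 3.14 CPM in UHRF1 KO and 3.70 and 3.396 CPM in control (log2 fold change -0.11, SE 0.21). PCDHA11 had 1.64 and 2.49 CPM in UHRF1 KO and 2.41 and 3.23 CPM in control (log2 fold change -0.43, SE 0.26, edgeR adjusted p = 0.155), and was called lower in 1 of 13 alternatives, with libraries recentred (adjusted p = 0.0242). PCDHA5 and PCDHA10 had log2 fold changes of 0.04 and 0.23, each smaller than its SE of 0.32 and 0.52. The 7 alpha genes under the filter had at most 8 counts in a UHRF1 KO library and 11 in a control library. Per kb of own exon PCDHAC2 was the highest member in both groups, at 3.71 CPM in UHRF1 KO and 5.39 CPM in control, followed by PCDHAC1 at 1.85 and 1.75 CPM, PCDHA12 at 1.64 and 1.76 CPM and PCDHGC3 at 1.28 and 1.36 CPM in the same order of groups. PCDHAC1 and PCDHA12, neighbours in this order, did not differ beyond their spread in either group. The mean of PCDHGC3 lay below both, though in control its libraries overlapped those of PCDHAC1.

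The beta cluster was the least expressed, and 0 of its 3 tested genes were called, beside 32% higher and 30.1% lower over all genes, with 0 at an unadjusted edgeR p under 0.05 and 0 with DESeq2 and limma-voom. PCDHB2 had 1.40 and 2.25 CPM in UHRF1 KO and 2.02 and 1.83 CPM in control (log2 fold change -0.06, SE 0.30), with the controls inside the range of the UHRF1 KO libraries. PCDHB5 had 0.772 and 0.603 CPM in UHRF1 KO and 1.46 and 0.809 CPM in control (log2 fold change -0.72, SE 0.42, edgeR adjusted p = 0.135), and was called lower only with libraries recentred. PCDHB6 had 3 and 20 counts in UHRF1 KO and 11 and 9 in control, so its UHRF1 KO libraries stood on either side of both controls. PCDHB3 had 6 and 4 counts in UHRF1 KO and 0 and 4 in control, and PCDHB13 had 1 and 1 in UHRF1 KO and 4 and 4 in control. PCDHB4 had 4 and 7 counts and PCDHB11 had 2 and 8 counts in UHRF1 KO, with 0 in both controls. Against a floor of 3 counts over both controls PCDHB4 was at least 2.93-fold higher in UHRF1 KO, and PCDHB11 at least 2.66-fold higher. These bounds take the UHRF1 KO counts as they are, and the exact 95% counting intervals of the ratios began lower, at 2.00 and 1.79. Both were called higher in edgeR with no filter on low counts (adjusted p = 0.0304 and 0.0448), where 17% of all genes were called higher and 15.8% lower.

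The gamma cluster held the 1 member called higher. PCDHGA2 (ENSG00000081853, chr5:141338760-141512979) had 62 and 68 counts in UHRF1 KO and 19 and 16 in control, or 2.99 and 2.74 CPM against 1.07 and 0.862 CPM. Both UHRF1 KO libraries lay above both controls. The log2 fold change was 1.56 (SE 0.30, 2.96-fold, edgeR adjusted p = 3.54e-05), and it was called in all 13 alternative fits, with adjusted p from 5.24e-06 to 0.00849. Without UHRF1 KO replicate 2, and likewise without control replicate 1, 2 gamma genes were called higher. In all, 15.4% of genes tested were called with a rise of at least 2-fold. Of 9 tested gamma genes 1 was called higher and 0 lower, beside 32% and 30.1% of all genes, a number too small and levels too low to read against that background. With 0 lower calls in edgeR, 0 gamma genes were lower at an unadjusted p under 0.05, and DESeq2 and limma-voom called 0 lower.

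**Figure D2:**
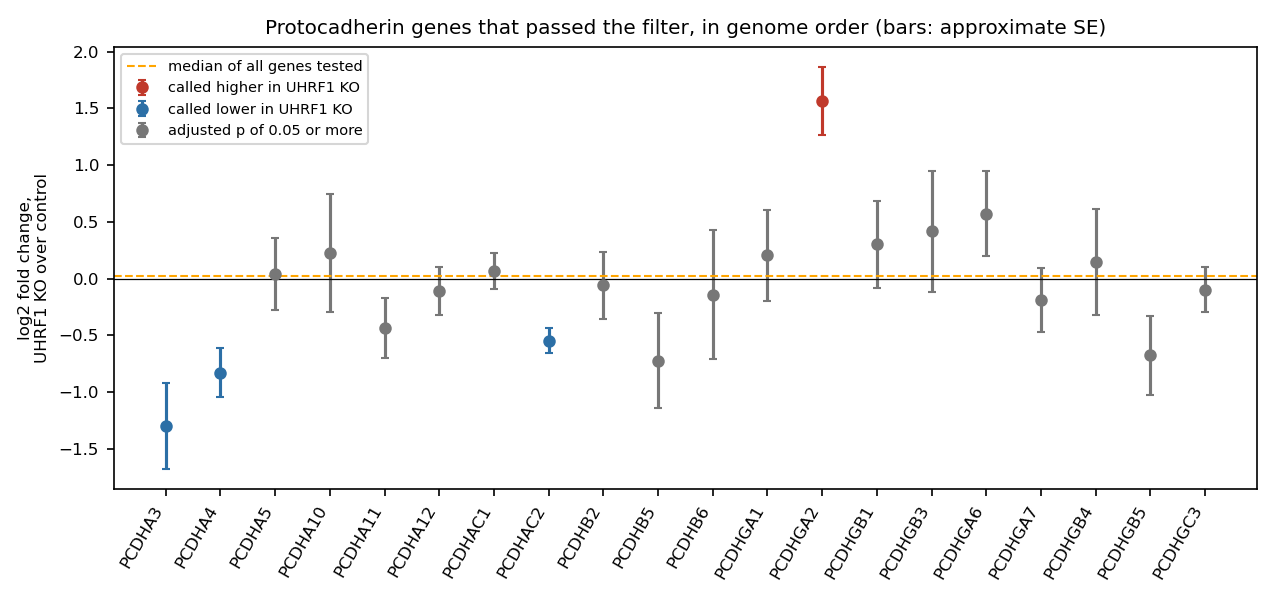
Log2 fold change of UHRF1 KO over control for the 20 clustered protocadherins that passed the filter, in genome order, with approximate standard errors. PCDHGA2 is the 1 gene called higher, and PCDHA3, PCDHA4 and PCDHAC2 are called lower. The dashed line marks the median of all genes tested.

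Genes beside PCDHGA2 at the 5′ end of the gamma cluster had few counts, and several had more of them in UHRF1 KO. PCDHGA1, directly upstream, had 26 and 20 counts in UHRF1 KO and 18 and 14 in control (log2 fold change 0.20, SE 0.40), and the groups overlapped after scaling. PCDHGA3, directly downstream, had 9 and 3 counts in UHRF1 KO and 0 in both controls, at least 3.19-fold higher against the floor of 3 counts, with an exact counting interval that began at 2.22. PCDHGB2 had 13 and 7 counts in UHRF1 KO and 2 and 0 in control, a ratio of 7.98 (exact 95% counting interval 1.94 to 70.4). PCDHGA4 had 13 and 9 in UHRF1 KO and 3 and 2 in control, a ratio of 3.51 (1.30 to 11.9). With no filter on low counts edgeR called 3 of 22 gamma genes higher, beside 17% of all genes. These were PCDHGA2, PCDHGA3 and PCDHGB2, the last 2 at edgeR adjusted p = 0.0183 and 0.0178. PCDHGA4 was not called (edgeR adjusted p = 0.0868). Of all genes under the filter with at least 1 count, 10.2% had a counting interval of the ratio above 1. PCDHGB1, which lies between PCDHGA3 and PCDHGA4, had 25 and 26 counts in UHRF1 KO and 17 and 16 in control. Its log2 fold change was 0.30 (SE 0.38, edgeR adjusted p = 0.508). Such ratios were not confined to these genes. Farther downstream in the cluster, PCDHGA11 had 11 and 4 counts in UHRF1 KO and 3 and 0 in control. The PCDHGA11 ratio was 3.99 (exact 95% counting interval 1.13 to 21.5), and the groups overlapped after scaling.

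The remaining gamma genes with more counts did not follow PCDHGA2. PCDHGC3, a C-type gene whose mouse protein binds the WNT regulator AXIN1, was the most abundant. It had 4.39 and 3.90 CPM in UHRF1 KO and 3.65 and 5.17 CPM in control (log2 fold change -0.10, SE 0.20, edgeR adjusted p = 0.690), with the UHRF1 KO values inside the control range. PCDHGA7 had 1.69 and 2.01 CPM in UHRF1 KO and 1.79 and 2.43 CPM in control (log2 fold change -0.18, SE 0.28). PCDHGB5 had 0.964 and 1.09 CPM in UHRF1 KO and 1.40 and 1.89 CPM in control (log2 fold change -0.68, SE 0.35, edgeR adjusted p = 0.0904), and PCDHGA6 had 1.06 and 1.61 CPM in UHRF1 KO and 0.841 and 0.970 CPM in control (log2 fold change 0.57, SE 0.38, edgeR adjusted p = 0.189). Neither passed the test, though neither pair of groups overlapped. PCDHGC4, needed in mice for the survival of cortical interneurons, and PCDHGC5 had at most 4 counts in any library.

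Counts were also summed over the PCDHGA, PCDHGB and PCDHGC genes, the subfamilies of the gamma cluster. The 12 PCDHGA genes summed to 201 and 207 counts in UHRF1 KO and 102 and 106 in control. This was a ratio of 1.57 (exact 95% counting interval 1.32 to 1.86). PCDHGA2 alone gave 62 and 68 of these counts in UHRF1 KO and 19 and 16 in control. The 7 PCDHGB genes summed to 89 and 110 in UHRF1 KO and 63 and 84 in control, a ratio of 1.08 (0.868 to 1.35). The 3 PCDHGC genes summed to 93 and 102 in UHRF1 KO and 66 and 96 in control, a ratio of 0.960 (0.776 to 1.19). These intervals cover counting error only, and the differences between subfamilies were not tested. PCDHGA1, PCDHGA2 and PCDHGA3 together made up 23.4% of the gamma counts in UHRF1 KO and 12.96% in control.

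Summed over all members, the alpha cluster was lower in UHRF1 KO under every scaling. The gamma cluster was higher, though not under every scaling, and neither sum was tested. The alpha sum was 32.8 and 29.2 CPM in UHRF1 KO and 37.5 and 43.9 CPM in control, a log2 ratio of the means of -0.39. The beta sum was 3.23 and 5.23 CPM in UHRF1 KO and 4.82 and 3.67 CPM in control, a log2 ratio of -0.00480, and the groups overlapped. The gamma sum was 18.5 and 16.9 CPM in UHRF1 KO and 12.95 and 15.4 CPM in control, a log2 ratio of 0.32. Much of this difference lay in PCDHGA2, at 2.99 and 2.74 CPM in UHRF1 KO and 1.07 and 0.862 CPM in control. After correction for GC content and length with libraries recentred, which moved the median of all genes to -0.29, the gamma ratio was -0.10 and the alpha ratio -0.63. PCDHAC2 gave 38.1% of the alpha counts in UHRF1 KO and 42.3% in control, and the 13 alpha genes outside the C type summed to a ratio of 0.711 (0.631 to 0.800). Per kb of own exon the summed levels in UHRF1 KO were 0.497 CPM for alpha, 0.0673 for beta and 0.243 for gamma, and in control 0.652, 0.0675 and 0.195 CPM. The difference between clusters was not tested.

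**Figure D3:**
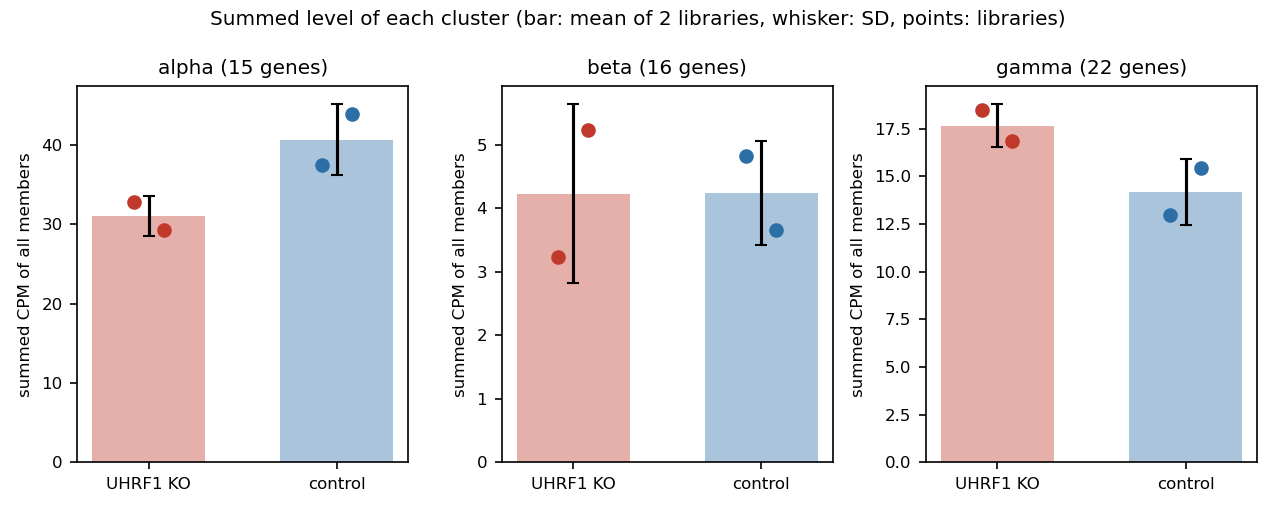
Summed CPM of all members of the alpha, beta and gamma clusters in each library (bars: mean of 2 libraries, whiskers: SD, points: libraries; the 3 axes differ in scale). The alpha points of UHRF1 KO lie below those of control, the beta points overlap, and the gamma points of UHRF1 KO lie above those of control, a direction that turned to -0.10 with libraries recentred.

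The silent members stayed near silence. Under 10 counts over both controls were found for 29 members, 4 alpha, 13 beta and 12 gamma, and 0 of the 29 reached 20 counts in each UHRF1 KO library. Of all 6497 protein-coding genes with so few control counts, 5.53% did. Among the 4135 with 0 counts in both controls the share was 2.9%. With so small a background, a count of 0 among 29 is no result about the members. The 33 members under the filter together had 117 and 110 counts in UHRF1 KO and 62 and 68 in control. For 6 of them the counting interval of the ratio lay above 1, and for 2 below 1, against 10.2% and 1.67% of all genes under the filter with at least 1 count. Rises thus outnumbered falls among low-count genes in general, and nothing is read from the members' counts. The highest count of any of them in a UHRF1 KO library was 13. The 6 other rows with these symbol prefixes, all pseudogenes, had at most 5 counts in any library.

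Genes around the clusters moved in both directions, 8 each way. Among 82 other genes within 500 kb of the clusters or between them, 28 were tested. Of these, 8 were called higher and 8 lower, with a median log2 fold change of 0.03. Over all genes tested 32% were called higher and 30.1% lower, and nothing is read from the neighbours' counts. Inside the span, 31 other rows lie between or over the protocadherins, 22 of them at 0 counts in all libraries. TAF7 alone was tested, and the others had at most 10 counts in a library. TAF7, a subunit of the general transcription factor TFIID that sits between the beta and gamma clusters, was at 98.4 ± 1.99 CPM in UHRF1 KO and 95.6 ± 7.47 CPM in control (SD, n = 2 each; log2 fold change 0.04, SE 0.051, edgeR adjusted p = 0.515). DIAPH1, a formin on the other strand whose 3′ end lies just past the gamma cluster, was at 174.8 ± 2.41 CPM in UHRF1 KO and 169.5 ± 1.52 CPM in control (log2 fold change 0.04, edgeR adjusted p = 0.350).

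The called neighbours with the smallest p lay farther out. HBEGF, an EGF receptor ligand upstream of the alpha cluster, rose to 27.8 ± 1.32 CPM in UHRF1 KO, against 6.53 ± 1.23 CPM in control (log2 fold change 2.09), and FCHSD1, downstream of the gamma cluster, had 17.4 ± 1.00 CPM in UHRF1 KO and 10.0 ± 0.38 CPM in control (log2 fold change 0.80). ZMAT2 and NDUFA2, on the alpha side, fell by 0.71 and 0.51 on the log2 scale. Among the 20 tested protocadherins, the log2 fold change and the distance of the gene start from that of PCDHA1 had a Pearson r of 0.46 and a Spearman rho of 0.35, as a description over neighbouring genes of the same libraries.

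**Figure D4:**
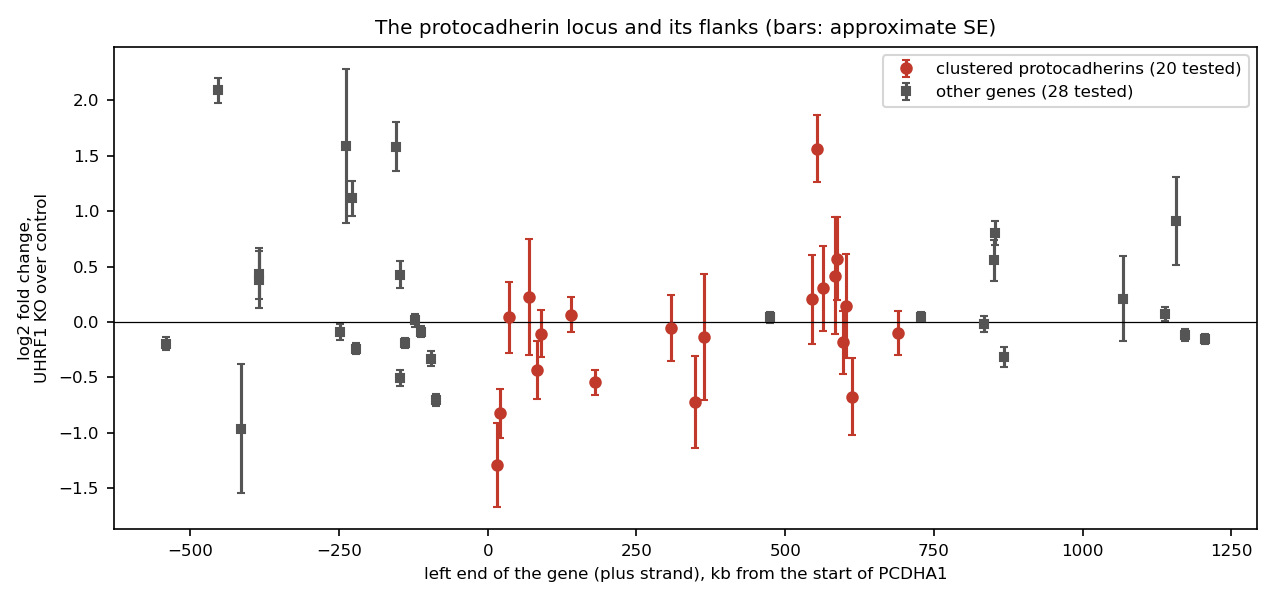
Log2 fold change of UHRF1 KO over control against the left end of each gene on the plus strand in kb from the start of PCDHA1, for the 20 tested clustered protocadherins (red) and 28 tested genes around them (grey), with approximate standard errors. HBEGF stands highest at 2.09, and TAF7, between the beta and gamma clusters, lies at 0.04.

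The factors that fold the locus were mostly lower in UHRF1 KO. Of 12 genes for CTCF, cohesin and its loaders and releasers, all tested, 10 fell and 1 rose, with a median log2 fold change of -0.41 against 0.02 for all genes. Among tested genes of 20 CPM or more, 47.6% were called lower and 26% higher. CTCF, which binds protocadherin promoters and enhancers, was at 61.6 ± 1.33 CPM in UHRF1 KO and 96.2 ± 1.18 CPM in control (log2 fold change -0.64, SE 0.051, edgeR adjusted p = 8.94e-13). The cohesin subunits SMC1A and RAD21 fell by 0.43 and 0.42. The cohesin deacetylase HDAC8 alone was higher, at a log2 fold change of 0.54. Their part in the protocadherin values was not tested.

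Silencing factors tied to the locus in earlier work went both ways, with 3 of 16 higher and 6 lower and a median of -0.15. The 6 include UHRF1 itself, the targeted gene. Over all genes tested 32% were called higher and 30.1% lower, and among those of 20 CPM or more 26% and 47.6%. Nothing is read from the counts of this list. SMCHD1, whose loss raises protocadherin genes in mouse cells, was at 53.7 ± 0.67 CPM in UHRF1 KO and 74.8 ± 3.58 CPM in control (log2 fold change -0.48, SE 0.056, edgeR adjusted p = 6.25e-09). The de novo methyltransferase DNMT3B, which in mouse sets methylation of protocadherin promoters, was at 24.7 ± 1.04 CPM in UHRF1 KO and 9.73 ± 0.27 CPM in control (log2 fold change 1.34). The methyl-CpG binder MBD1 rose by a log2 fold change of 0.39, but with libraries recentred the value was 0.053 and not called. SETDB1, the H3K9 methyltransferase that guards the locus in mouse neurons, had a log2 fold change of -0.17 and missed the threshold (edgeR adjusted p = 0.0512).

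Genes that process or bind the proteins moved in both directions. Of 8 genes for ADAM10-type shedding and gamma-secretase cleavage, 3 rose and 1 fell, beside 32% called higher and 30.1% lower over all genes. The gamma-secretase subunit NCSTN rose, with a log2 fold change of 0.57, and the subunit APH1A fell by 0.23. Of 14 genes for cytoplasmic partners, 2 rose and 7 fell, beside the same shares over all genes. CYFIP2 and NCKAP1, subunits of the WAVE actin regulator that the intracellular parts recruit, fell by 1.24 and 0.37, while CYFIP1 had a log2 fold change of 0.18, which turned to -0.01 with libraries recentred, and WASF3 had 16 and 21 counts in UHRF1 KO and 1 and 1 in control. The kinase PTK2, inhibited by protocadherin tails, was at 152.2 ± 6.82 CPM in UHRF1 KO and 172.8 ± 2.43 CPM in control (log2 fold change -0.18, edgeR adjusted p = 4.37e-04).

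Among 12 protocadherins outside the clusters, 4 were tested, 2 were higher and 1 lower, beside 32% higher and 30.1% lower over all genes. PCDH9 was at 22.6 ± 3.10 CPM in UHRF1 KO and 68.6 ± 5.00 CPM in control, a difference of -1.61 on the log2 scale (SE 0.076; adjusted p = 4.80e-18 in edgeR), with both UHRF1 KO libraries below both controls. PCDH7 and PCDH12 had log2 fold changes of 0.39 and 0.91 at edgeR adjusted p = 0.0328 and 0.0461, and each was called in 7 of 13 alternative fits. Neuronal markers showed no common direction, with 3 of 8 tested higher and 3 lower of a list of 14, beside the same shares over all genes. SNAP25 and TUBB3 were higher, at log2 fold changes of 0.32 and 0.63, and NEFL and SYP fell by 0.72 and 1.16. With libraries recentred SNAP25 and TUBB3 were at 0.11 and 0.084 and lost their calls, and TUBB3 was not called by DESeq2 either. Summed, the 14 were at 85.7 and 90.7 CPM in UHRF1 KO and 83.3 and 85.5 CPM in control, and the neuronal genes ELAVL4 and DCX had 0 counts in all libraries.

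Of 6 epithelial markers, all tested, 5 fell and EPCAM rose, at 9.98 ± 1.09 CPM in UHRF1 KO and 2.21 ± 0.83 CPM in control (log2 fold change 2.16). Summed, the 6 were at 3777 and 3755 CPM in UHRF1 KO and 4972 and 4742 CPM in control. Over all genes tested 32% were called higher and 30.1% lower. Markers of other cell types, 12 in all, summed to 48.5 and 50.8 CPM in UHRF1 KO and 3.98 and 5.07 CPM in control. All 4 that could be tested rose. Among them were PECAM1, an endothelial adhesion gene, with 607 and 759 counts in UHRF1 KO and 7 and 2 in control, and COL1A1, by a log2 fold change of 2.05. The filter keeps a gene with enough counts in either group. A gene nearly silent in control, such as PECAM1, could thus be tested only because it was high in UHRF1 KO. Nothing is read from the count of rises in this list. CD3E had 0 counts in all libraries, and PTPRC had 10 and 20 counts in UHRF1 KO and 0 in both controls. Their part in the protocadherin values was not tested. In bulk RNA, fewer cells of a kind and less RNA per cell cannot be told apart.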

How the data were processed

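Whole-number read counts per gene for 58735 Ensembl identifiers were used as the authors deposited them, not normalized. GRCh38 and FastQC 0.10.1 are named per the submitters' processing notes. The aligner, the counter and its use of strand were not given in the sources used here. All identifiers matched GENCODE 29, which gave symbols and coordinates. The control columns were told apart by the replicate numbers of the titles, since the description of both control samples names the same column.

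Genes passing edgeR's filterByExpr were tested with edgeR 4.0.16 in R 4.3.3 (TMM scaling, robust quasi-likelihood test, two-sided, Benjamini-Hochberg over 17030 genes, called at an adjusted p under 0.05). Standard errors are approximate, the fold change divided by the root of the F statistic. Alternatives used RLE and upper-quartile factors, other filters, a replicate block, libraries left out, DESeq2 1.42.0, limma-voom (limma 3.58.1), GC and length correction, and stricter thresholds. Code was tested on simulated data. CPM and folds per own exon were computed from the counts. Intervals of count ratios (exact binomial, 95%) and floors (3 counts over both controls) cover counting error only. Replicates differed beyond sampling noise, with a chi-square per degree of freedom of 1.85 in the UHRF1 KO pair and 2.65 in the control pair.

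The members and lists were chosen with earlier results of these data known. Named were UHRF1, the 5 most abundant members of each cluster, the called members, the C-type members, and up to 2 called genes per direction and smallest adjusted p among neighbours and in each list. Other genes given values were chosen after their values were seen. 1 gene that the naming rule selects is not reported here.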

Additional observations from a re-analysis of the deposited data

How the results depend on the processing

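PCDHAC2 stayed lower and PCDHGA2 higher in all 13 alternative fits. Removing GC and length trends and recentring libraries gave 3272 higher and 8794 lower calls over all genes, 1 lower beta and 3 lower gamma members, and 13 higher and 66 lower calls among neighbours and lists (26 and 41 in the reported fit). It gave summed log2 ratios of -0.63 for alpha and -0.10 for gamma. It also gave log2 fold changes of -0.14 for PCDHAC1, -0.19 for PCDHA5, -0.19 for PCDHGA1, -0.16 for PCDHGB1, -0.031 for PCDHGB3, -0.013 for PCDHGB4 and -0.010 for CYFIP1. A 2-fold minimum left 2616 higher and 432 lower calls, 1 lower alpha member, and 11 and 4 calls among neighbours and lists. DESeq2 called 1 alpha member lower. With no filter on low counts, 2 beta and 3 gamma members were higher and 4 alpha members lower. limma-voom gave -0.0089 for PCDHA10. The cause was not tested in any of these.

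With 1 library left out, the alpha members called lower ran from 2 (without either control) to 4 (without either UHRF1 KO library) and the gamma members called higher from 1 to 2 (without UHRF1 KO replicate 2 or control replicate 1). A lone library was then assumed to vary like the other group. Log2 fold changes that changed sign, none of them called, ranged from -0.17 to 0.30 for PCDHAC1, -0.46 to 0.22 for PCDHB2, -1.89 to 0.54 for PCDHB6, -0.34 to 0.16 for PCDHGC3, -0.40 to 0.030 for PCDHGA7, -0.12 to 0.19 for PCDHA5, -0.77 to 0.87 for PCDHA10, -0.14 to 0.50 for PCDHGA1, -0.032 to 1.03 for PCDHGB3 and -0.23 to 0.61 for PCDHGB4.

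Deviations of same-numbered libraries had a correlation of -0.014 over genes. This compares a single difference between libraries in each group, much of it counting noise. It cannot show whether same-numbered libraries shared a batch or handling. Which control is replicate 1 is also uncertain, as both descriptions name the same column. The replicate block gave 5280 higher and 4986 lower calls over all genes, 3 lower alpha and 1 higher gamma members, and a UHRF1 log2 fold change of -1.31. The depth limits the 33 members under the filter, where a single count is a large part of the level. It also limits the tested members with few counts, where moderate changes can be missed.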
